A study of Mus musculus with 4 samples.

Results

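A set of 40 mouse genes of glycolysis and of the hypoxia response was read in RNA-seq libraries of tumor-associated macrophages (TAMs), out of 16739 genes with a value above 0 in any library. The genes were listed by name from their known roles, with earlier results of these data known. They were matched by Entrez identifier, and all 40 were found. They comprised 16 glycolytic enzymes, 3 glucose and lactate transporters, 3 regulators of flux, 5 genes of the hypoxia-inducible factor (HIF) system and 13 other HIF targets. All 40 passed the filter on low counts and were tested among 11302 genes.

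Glycolysis converts glucose to pyruvate in the cytosol, and lactate dehydrogenase converts pyruvate to lactate, which is exported. Cells that lack oxygen raise the genes of this pathway through HIFs. The prolyl hydroxylases (the Egln genes) mark the alpha subunit of a HIF for the von Hippel-Lindau protein (Vhl) while oxygen is present, and the subunit is then destroyed. Without oxygen the subunit survives, pairs with its beta partner and binds the hypoxia response element of its targets. These targets include glycolytic genes and genes for vessel growth, mitophagy, collagen hydroxylation and the feedback control of HIF itself. In TAMs, HIF activity and glycolysis are also known to follow inflammatory signals and lactate.

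The cells were sorted as CD45+ CD11b+ F4/80+ from B16-F10 melanomas, which had been grown under the skin of C57BL/6 mice for 16 days. Tumor cells were given to mice aged 6 to 8 weeks, and the labels name no other treatment. There were 2 libraries from wild-type (WT) mice and 2 from mice labelled Trim24-/-. According to the methods of the study, the latter carried Trim24 flox/flox alleles and LysM-Cre, which is active in macrophages, neutrophils and other myeloid cells, and the controls were WT littermates. Trim24 would therefore remain intact in the melanoma cells and lymphocytes of every mouse. The labels do not state whether a library came from 1 mouse or several, so a p-value measures only the spread between these libraries.

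The libraries held 4476122.36 to 5172407.06 expected counts. Macrophage markers were detected in all of them, all 12 passed the filter, and their summed level was 20200 to 23900 CPM (counts scaled to the TMM-adjusted library total) in WT and 25700 to 27000 CPM in the other group. Trim24 itself was at 5.84 and 2.08 CPM in WT and 3.40 and 0.41 CPM in the others. The groups overlapped in this gene, so the second group is called the libraries labelled Trim24-deficient. The X-linked transcript Xist stood at 10.9 and 6.44 CPM in WT and at 436 and 255 CPM in those labelled Trim24-deficient. The Y-linked gene Ddx3y stood at 73.5 and 102 CPM in WT and at 0.425 and 0.41 CPM in the others, where 3 counts make 0.58 to 0.61 CPM. Sex-linked transcripts thus followed the genotype labels, although the methods of the study describe the mice of its tumor models as matched for sex. The effects of sex and genotype cannot be told apart in any comparison given here. Melanoma markers were present in every library at a summed 796 to 833 CPM in WT and 622 to 820 CPM in the others. Of the 9 tested, 8 had a log2 fold change (labelled Trim24-deficient over WT) below 0, and the median was -0.54. In 6, both libraries labelled Trim24-deficient lay below both WT libraries (all genes tested, 23.0%). Tyr, the most abundant at 374 to 496 CPM, was above 0 at 0.06. Neutrophil markers summed to 185 and 222 CPM in WT and to 287 and 449 CPM in the others, with 5 of 10 markers tested. Of these 5, 4 were higher in both libraries labelled Trim24-deficient than in both WT libraries (all genes tested, 21.5%). Cxcr2 overlapped, at 63.5 and 83.7 CPM in WT and 42.7 and 76.7 CPM in the others. T and NK cell markers summed to 117 and 72.8 CPM in WT and to 263 and 89.6 CPM in the others. Dendritic cell markers summed to 45.9 to 87.7 CPM and B cell markers to 46.1 to 55.2 CPM over the libraries. Fibroblast markers reached at most 5.96 CPM in sum and endothelial markers at most 15.4 CPM. The part of these other cells in the results below was not tested. In bulk RNA, fewer cells with a transcript and less of it per cell cannot be told apart.

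Because many of the listed genes are known targets of HIFs, the promoters of 4 of them are shown. These are the glycolytic enzymes and the other HIF targets with the lowest p-values of their role in the comparison of genotypes, 2 of each. The hypoxia response element has the core ACGTG or GCGTG, and both strands were searched, so that a palindrome such as the CACGTG of Bnip3 counts as 2 overlapping matches. The 250 bases before the RefSeq start of each gene (GRCm38.p6) are printed 5' to 3' on the strand of the gene, with every match in capitals.
Aldoc (chr11:78322823-78323072, plus strand): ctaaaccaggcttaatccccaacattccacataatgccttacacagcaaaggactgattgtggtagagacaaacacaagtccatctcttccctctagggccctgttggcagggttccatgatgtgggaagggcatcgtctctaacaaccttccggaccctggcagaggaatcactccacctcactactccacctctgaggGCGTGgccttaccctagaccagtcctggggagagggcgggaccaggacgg
Hk2 (chr6:82774455-82774704, minus strand): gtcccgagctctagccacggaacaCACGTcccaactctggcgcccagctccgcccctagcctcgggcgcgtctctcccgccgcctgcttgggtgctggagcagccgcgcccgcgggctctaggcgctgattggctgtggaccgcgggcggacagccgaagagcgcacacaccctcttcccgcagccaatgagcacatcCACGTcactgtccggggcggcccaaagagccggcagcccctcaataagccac
Bnip3 (chr7:138909507-138909756, minus strand): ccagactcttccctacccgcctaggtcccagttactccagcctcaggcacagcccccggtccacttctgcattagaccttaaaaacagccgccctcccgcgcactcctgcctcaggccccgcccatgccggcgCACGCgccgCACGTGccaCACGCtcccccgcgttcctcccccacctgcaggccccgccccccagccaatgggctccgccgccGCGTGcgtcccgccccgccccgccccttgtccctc
Higd1a (chr9:121857797-121858046, minus strand): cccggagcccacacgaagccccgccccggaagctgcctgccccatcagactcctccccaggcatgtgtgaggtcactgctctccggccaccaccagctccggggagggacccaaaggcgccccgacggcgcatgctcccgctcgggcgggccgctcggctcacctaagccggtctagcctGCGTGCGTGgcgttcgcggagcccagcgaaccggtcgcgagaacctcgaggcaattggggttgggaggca
Bnip3, which encodes a mitochondrial protein that promotes mitophagy, held 5 matches, and their first bases lay 117, 108, 107, 99 and 35 bases before the start. Hk2 held 2, at 226 and 52 bases before the start, and Higd1a held 2 that share a base, at 70 and 66. Aldoc held 1, at 50 bases before the start. RefSeq promoter windows of 300 bases, from 250 before to 50 after a start, were given for 37 of the 40 genes, and Epas1, Bnip3l and Ndrg1 had no entry. A gene with several starts had several windows, some of them overlapping. Of the 55 windows of the 37 genes, 43 (78.2%) held at least 1 core and 30 (54.5%) held at least 2. Over 32851 windows of all genes the core was in 43.8%, and over the 11500 windows of genes tested it was in 61.9%. At least 2 cores were in 20.6% of the former and 33.8% of the latter. The core was in 21 of 27 windows of glycolytic enzymes and in 12 of 16 windows of other HIF targets. Such a match is a description of letters and not a binding site.

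The glycolytic enzymes spanned nearly 3 orders of magnitude in level. In FPKM, which corrects for gene length and so allows levels to be compared between genes, their means over the 4 libraries ran from 2.79 for Pfkm to 2470 for Gapdh, with a median of 298. Among the 40 genes, 6 were within the 100 highest genes of these macrophages. They were Gapdh (rank 22), Eno1 (rank 33), Pkm (rank 41), Ldha (rank 46), Aldoa (rank 51) and Tpi1 (rank 89), all enzymes of the pathway from aldolase onward. These 6 enzymes made 86.6% to 87.9% of the FPKM of all 16 enzymes in each library. The genes of the first steps were lower, with mean levels of 19.1 FPKM for Hk2, 18.7 FPKM for Hk1, 221 FPKM for Gpi1, 63.2 FPKM for Pfkl and 53.1 FPKM for Pfkp. Hk3, a hexokinase outside the 40 genes, had a mean of 139 FPKM. The other HIF targets had a median level of 21.6 FPKM, and the 5 genes of the HIF system a median of 5.78 FPKM. Mif, a cytokine of macrophages, led the targets at 458 FPKM, followed by Bnip3 at 144 FPKM. At 10 FPKM or more on average stood 28 of the 40 genes.

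**Figure D1:**
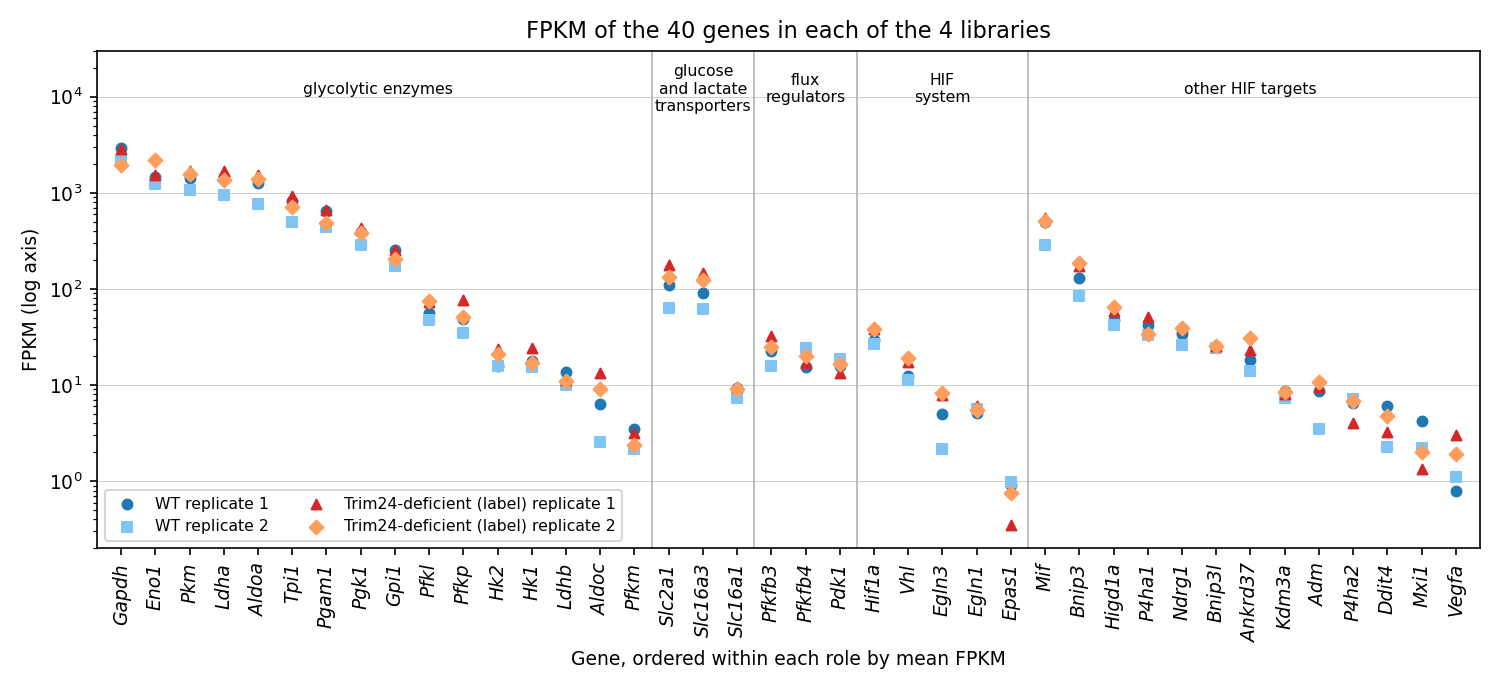
FPKM (log axis) of each of the 40 genes in the 4 libraries, with 1 symbol per library and the genes ordered within each role by mean FPKM. Glycolytic enzymes run from 2470 FPKM for Gapdh to 2.79 FPKM for Pfkm, and the light blue squares of WT replicate 2 lie lowest for most genes.

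Within families of enzymes, a single gene often supplied most of the transcript. Aldoa made 99.1% to 99.7% of the FPKM of Aldoa and Aldoc in each library, and Ldha made 99.0% to 99.3% of that of Ldha and Ldhb. Eno1 made 98.9% to 99.5% of the enolases beside Eno2 and Eno3. Among the hexokinases the most abundant gene was Hk3, a paralog outside the 40 genes and known from myeloid cells, with 78.3% and 70.6% in WT and 81.2% and 80.1% in the other group. Hk1 and Hk2 each held between 8.89% and 14.8%. The phosphofructokinases were shared between Pfkl (47.6% to 58.3%) and Pfkp (39.9% to 50.4%), whereas Pfkm, the muscle form, held 1.84% to 3.21%. Slc16a3, the lactate exporter MCT4, made 90.7% and 89.2% of the transcript of Slc16a3 and Slc16a1 in WT and 93.9% and 93.0% in the other group. Hif1a made 95.8% to 98.9% of the transcript of the HIF alpha subunits, and Epas1, which encodes HIF-2 alpha, at most 3.48%. Egln2, a prolyl hydroxylase outside the 40 genes, led its family with 69.0% to 81.0%, while Egln3 held 9.79% and 5.22% in WT and 17.4% and 15.2% in the other group. Pfkfb3 and Pfkfb4 changed places within WT, since Pfkfb3 held 54.2% in replicate 1 and 35.6% in replicate 2.

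**Figure D2:**
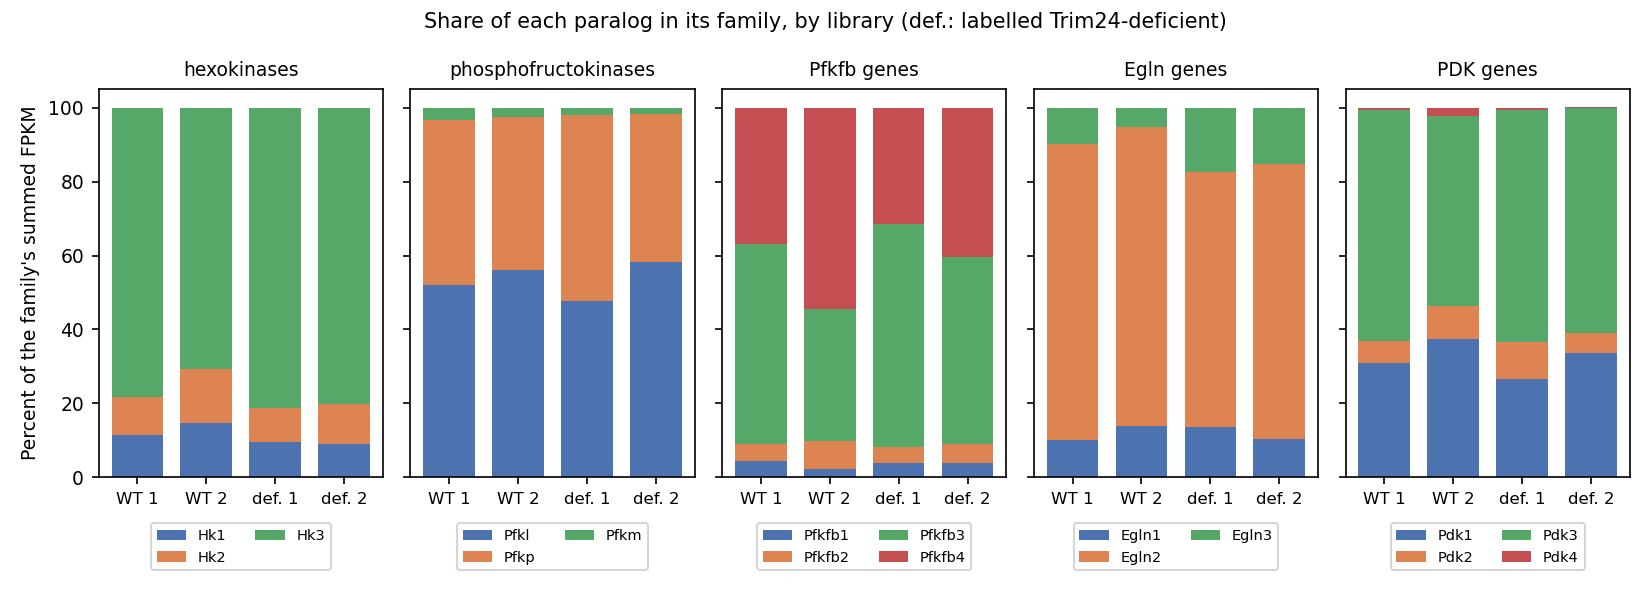
Stacked bars give the percent of the summed FPKM of a family that each paralog held in each library (def. marks the libraries labelled Trim24-deficient). Hk3 holds at least 70.6% of the hexokinases, Egln2 at least 69.0% of the Egln genes and Pdk3 at least 51.5% of the genes for pyruvate dehydrogenase kinases.

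The comparison of genotypes asked whether these genes differ between TAMs of WT mice and of mice labelled Trim24-deficient. No gene of the 40 was called by the thresholds of the study (edgeR's quasi-likelihood test, fold change above 1.5 and adjusted p below 0.05), where 0.372% of all genes tested were called. Limma on FPKM called none of the 39 it tested, and DESeq2 called 1, against 1.38% of all genes. Leaving out replicate 1 of the libraries labelled Trim24-deficient gave 5 calls among the 40 (3.46% of all genes), leaving out their replicate 2 gave 7 (5.54%), leaving out WT replicate 1 gave 1 (0.563%) and leaving out WT replicate 2 gave 0 (0.215%). Levels leaned one way below that threshold. Because the genes were listed with earlier results of these data known, the shares that follow are descriptions and not an independent test. The log2 fold change was above 0 for 36 of the 40 genes, against 49.4% of all genes tested. In 27 genes both libraries labelled Trim24-deficient lay above both WT libraries (all genes tested, 21.5%), and in 1 gene, Epas1, both lay below (all genes, 23.0%). These counts are of TMM-scaled CPM. In FPKM, which has no TMM scaling, Hk1, Pgk1, Ldha, Slc16a1, Egln1 and Kdm3a of the 27 overlapped. The share of all genes was not counted in FPKM. At an unadjusted p below 0.05 stood 17 genes that were higher, against 6.58% of all genes tested. None stood there that was lower, against 5.62% of all genes. Over 1.5-fold higher, whatever the p, were 16 genes (all genes, 7.65%). The median log2 fold change of the 40 genes was 0.50, a fold of 1.41, and that of all genes tested was -0.01. With library totals in place of TMM the median of all genes was -0.15 and that of the 40 genes 0.36, with 31 of them above 0 and 14 higher at an unadjusted p below 0.05, against 3.96% of all genes.

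The low values came mostly from a single library. WT replicate 2 was the lowest of the 4 libraries in 33 of the 40 genes, whereas it was lowest in 25.7% of all genes tested. For the glycolytic enzymes it was lowest in 16 of 16 and for the other HIF targets in 10 of 13. These counts are of TMM-scaled CPM, and for Gapdh they rest on 2800 against 2820 CPM. In FPKM, Gapdh was lowest in replicate 2 of those labelled Trim24-deficient, at 1923.3 against 2200.22 in WT replicate 2. The highest library was replicate 1 of those labelled Trim24-deficient in 22 of the 40 genes (all genes, 25.4%). As a deviation of log2 CPM from the mean of each gene, the median over the 16 enzymes was 0.04 in WT replicate 1, -0.46 in WT replicate 2 and 0.31 and 0.11 in those labelled Trim24-deficient. Over the 13 other HIF targets it was 0.05 and -0.50 in WT and 0.25 and 0.28 in the others. The 2 WT libraries thus lay further apart than WT replicate 1 lay from the other group. Without WT replicate 2, 31 of 40 log2 fold changes were positive, and 3 genes were higher at an unadjusted p below 0.05, against 2.85% of all genes in that fit. The median over all 40 was then 0.30, with 0.24 for glycolytic enzymes and 0.22 for other HIF targets. In that fit WT replicate 1 was alone in its group and was assumed to vary like the others. WT replicate 2 also had the lowest sum of macrophage markers, 20200 CPM, and the highest sum of erythroid markers, 234 CPM against 8.28 to 104 CPM in the other libraries. The macrophage markers did not move together between WT replicates 1 and 2. Lyz2 was 5200 and 3490 CPM there, but Adgre1 was 1040 and 1130 CPM. Csf1r and Fcgr1 were also higher in WT replicate 2, and the remaining markers were lower. The part of these differences in the low values of WT replicate 2 was not tested.

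**Figure D3:**
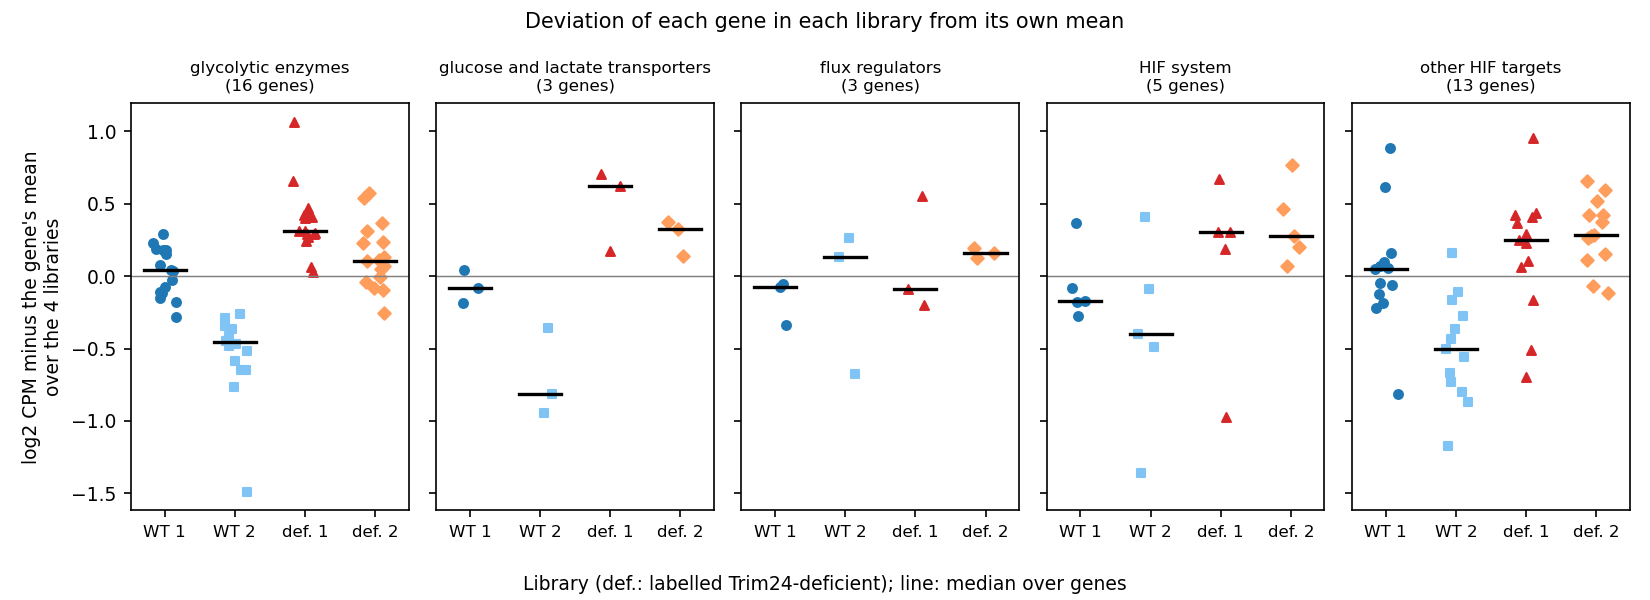
Each point is a gene in a library, placed by its log2 CPM minus its own mean over the 4 libraries, in a panel for each role. The black line is the median over genes, which for the glycolytic enzymes is -0.46 in WT replicate 2 and 0.04 in WT replicate 1, and def. marks the libraries labelled Trim24-deficient.

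Glycolytic enzymes and other HIF targets had close medians in this comparison. The median log2 fold change was 0.47 over the 16 enzymes (range 0.04 to 1.46) and 0.55 over the 13 other HIF targets (range -0.82 to 1.39). In TMM-scaled CPM both groups were non-overlapping and higher in a similar share, 10 of 16 enzymes (62.5%) and 9 of 13 targets (69.2%), against 21.5% of all genes tested. In FPKM, Hk1, Pgk1 and Ldha of these enzymes and Kdm3a of these targets overlapped. The difference between the roles was not tested, since genes of a role are not replicates. Every enzyme had a log2 fold change above 0, and Mxi1 and P4ha2 among the targets lay below 0. Some of these signs belong to values smaller than their SE, such as Gapdh at 0.04 (SE 0.28) and Ldhb at 0.09 (SE 0.29). Pfkm at 0.11 (SE 0.39) and P4ha2 at -0.17 (SE 0.33) were further cases. Pfkm, Gapdh and Ldhb fell below 0 under other scalings, and Gpi1 and Pgam1 did so without WT replicate 2. Of the enzymes, 6 were higher at an unadjusted p below 0.05, and of the targets 5, against 6.58% of all genes tested.

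Hk2, the inducible hexokinase that phosphorylates glucose in the first step, stood at 86.6 and 81.8 CPM in WT and at 140 and 124 CPM in those labelled Trim24-deficient. The groups did not overlap, and the log2 fold change was 0.65 (SE 0.18, adjusted p = 0.206 by edgeR). Replicates lay close together in this gene, and leaving out 1 library moved the log2 fold change only between 0.56 and 0.73. Hk1, the constitutive form, was 73.5 and 60.9 CPM in WT and 107 and 75.1 CPM in the others, so that its highest WT value nearly met the lower one of the other group. Both liver-type and platelet-type phosphofructokinase were higher. Pfkl was 208 and 168 CPM in WT and 289 and 303 CPM in the others (log2 fold change 0.65, SE 0.20, adjusted p = 0.226 by edgeR). Pfkp was 193 and 133 CPM in WT and 329 and 224 CPM in the others (log2 fold change 0.76, SE 0.26, adjusted p = 0.273 by edgeR). Pfkm stayed between 5.82 and 9.67 CPM in all libraries, with overlap.

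Aldolase splits fructose bisphosphate into both trioses. Aldoa was 1880 and 1080 CPM in WT and 2450 and 2270 CPM in those labelled Trim24-deficient, with a log2 fold change of 0.67 (SE 0.28, adjusted p = 0.387 by edgeR). Aldoc, the scarce paralog, was 16.7 and 6.44 CPM in WT and 37.8 and 26.3 CPM in the others. Its log2 fold change of 1.46 (SE 0.40, adjusted p = 0.196 by edgeR) was the highest among the 40 genes. The WT libraries differed from each other in Aldoc by more than WT replicate 1 did from the lower library of the other group. Leaving out 1 library gave Aldoc log2 fold changes between 0.94 and 2.32, the latter without WT replicate 1.

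The enzymes of the lower pathway showed 2 patterns. Eno1, enolase, was 2590 and 2110 CPM in WT and 2930 and 4280 CPM in the others (log2 fold change 0.62, SE 0.26, adjusted p = 0.390 by edgeR), so that the high value of 1 library carried most of the difference. Gapdh, the most abundant, was 3930 and 2800 CPM in WT and 4120 and 2820 CPM in the others, and the spread within each group was far larger than the difference between them (log2 fold change 0.04, SE 0.28, adjusted p = 0.966 by edgeR). Gapdh made 21.1% and 21.8% of the counts of all enzymes in WT and 18.7% and 14.0% in the other group. Pkm, pyruvate kinase, was 3410 and 2430 CPM in WT and 4310 and 4070 CPM in the others, without overlap. Ldha, which makes lactate, was 2330 and 1470 CPM in WT and 2910 and 2380 CPM in the others, and its closest values differed by less than the replicates of either group. Pgk1, an X-linked gene that makes ATP in the pathway, did not overlap either, at 703 and 493 CPM against 835 and 746 CPM. Gpi1, Tpi1, Pgam1, Pfkm and Ldhb overlapped between the groups, with log2 fold changes of 0.09 to 0.46. None of Pkm, Ldha, Pgk1, Hk1 and these 5 passed an unadjusted p below 0.05.

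Summed over the 16 enzymes, glycolysis took 1.92% and 1.38% of the expected counts of the WT libraries and 2.11% and 1.90% of those labelled Trim24-deficient. On these totals the groups overlapped, because WT replicate 1 lay above replicate 2 of the other group. Over TMM-scaled totals, as used for CPM, the shares were 1.86% and 1.28% in WT and 2.21% and 2.01% in the other group, without overlap. The 95% exact binomial interval of the 1.38% ran from 1.368% to 1.390% and that of the 1.92% from 1.904% to 1.929%, so counting error was far smaller than the spread between the WT libraries. The difference of the group means was 0.355 percentage points on library totals and 0.54 on TMM-scaled totals, and the pooled SD between replicates on library totals was 0.29 (n = 2 a group). Without WT replicate 2 the difference on library totals was 0.085.

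Both main transporters had about the same log2 fold change. Slc2a1, the glucose transporter GLUT1, was 275 and 151 CPM in WT and 474 and 364 CPM in the others (log2 fold change 0.97, SE 0.29, adjusted p = 0.221 by edgeR). Slc16a3, which exports lactate, was 220 and 142 CPM in WT and 385 and 324 CPM in the others. Its log2 fold change was 0.97 (SE 0.24), and its adjusted p of 0.171 by edgeR was the lowest among the 40 genes. Neither gene overlapped between the groups. DESeq2 called Slc16a3 alone among the 40 genes (adjusted p = 0.0239). Slc16a1, a second monocarboxylate transporter, was 40.9 and 31.0 CPM in WT and 44.8 and 43.7 CPM in the others, a log2 fold change of 0.30.

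The 3 regulators of flux parted. Pfkfb3, which makes the activator of phosphofructokinase, was 110 and 72.5 CPM in WT and 170 and 132 CPM in those labelled Trim24-deficient (log2 fold change 0.73, SE 0.24, adjusted p = 0.263 by edgeR). Pfkfb4, its paralog, was 51.2 and 77.5 CPM in WT and 60.6 and 72.2 CPM in the others (log2 fold change 0.05, SE 0.23, adjusted p = 0.959 by edgeR). Pdk1, a kinase that inhibits pyruvate dehydrogenase, was 81.0 and 92.2 CPM in WT and 73.3 and 91.9 CPM in the others. Only Pfkfb3 of these 3 was without overlap. WT replicate 2, lowest in most of the set, was the highest library for both Pfkfb4 and Pdk1.

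**Figure D4:**
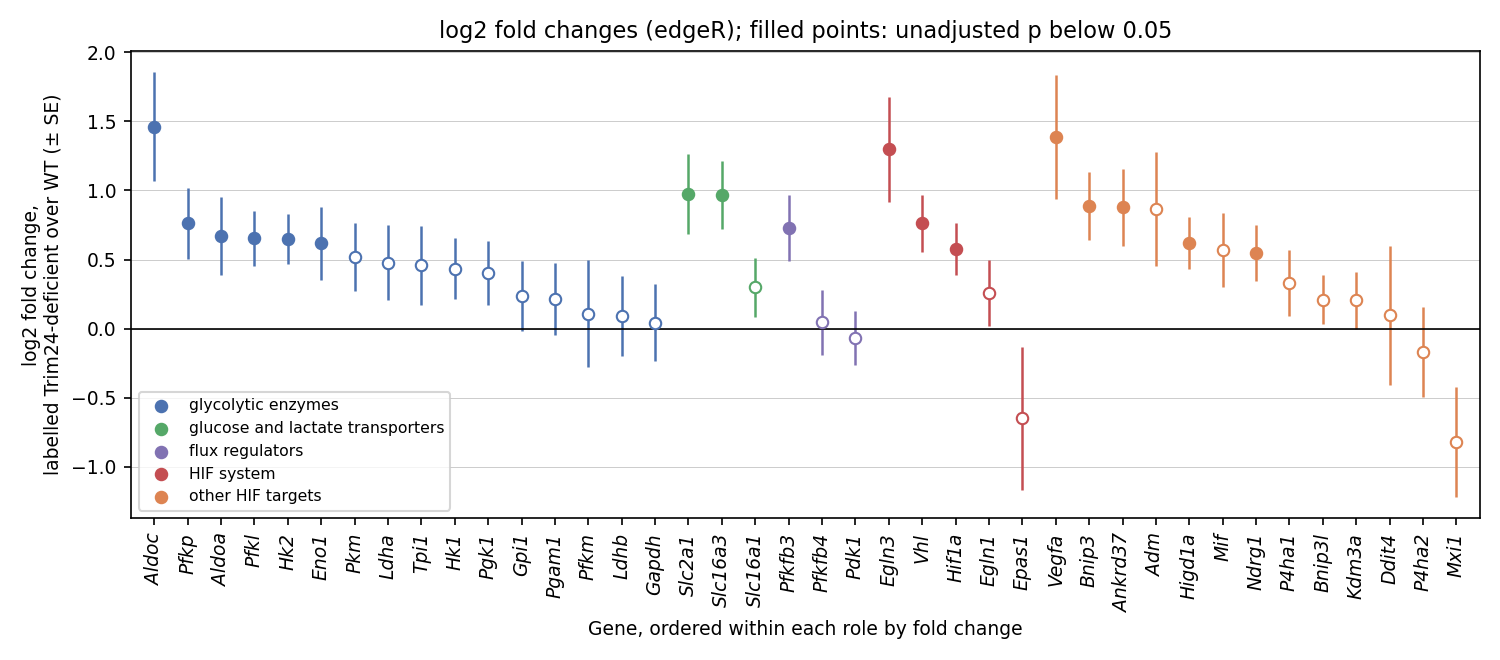
log2 fold changes of the 40 genes (libraries labelled Trim24-deficient over WT, edgeR) with their standard errors, ordered by size within each role. Filled points are the 17 genes with an unadjusted p below 0.05, all of them above 0, and no gene passed an adjusted p below 0.05.

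In the HIF system, Hif1a, Vhl and Egln3 stood at an unadjusted p below 0.05 and Egln1 and Epas1 did not. Hif1a was 136 and 117 CPM in WT and 190 and 187 CPM in those labelled Trim24-deficient (log2 fold change 0.58, SE 0.19, adjusted p = 0.256 by edgeR). Vhl was 33.4 and 28.9 CPM in WT and 49.9 and 55.8 CPM in the others (log2 fold change 0.76, SE 0.20, adjusted p = 0.193 by edgeR). Both genes had tight replicates, and leaving out 1 library kept them between 0.47 and 0.70 and between 0.66 and 0.89. Egln3, the hydroxylase that HIF itself induces, was 13.1 and 5.40 CPM in WT and 22.1 and 23.6 CPM in the others (log2 fold change 1.30, SE 0.38, adjusted p = 0.219 by edgeR). Egln1 was 17.7 and 18.7 CPM in WT and 22.7 and 20.9 CPM in the others, a log2 fold change of 0.26. Epas1 ran the other way at a low level, with 4.83 and 4.99 CPM in WT and 1.91 and 4.31 CPM in the others (log2 fold change -0.65, SE 0.52, adjusted p = 0.645 by edgeR), and 1 library supplied most of its difference.

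Bnip3 and Higd1a had the lowest p-values among the other HIF targets. Bnip3 was 222 and 139 CPM in WT and 321 and 347 CPM in those labelled Trim24-deficient (log2 fold change 0.89, SE 0.24, adjusted p = 0.200 by edgeR). Higd1a, a small protein of the respiratory chain, was 86.6 and 72.9 CPM in WT and 117 and 128 CPM in the others (log2 fold change 0.62, SE 0.19, adjusted p = 0.224 by edgeR). In both genes the difference between the groups exceeded the spread within them. Bnip3l, the paralog of Bnip3, was 79.4 and 73.1 CPM in WT and 88.0 and 88.4 CPM in the others, a smaller log2 fold change of 0.21.

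Secreted factors were led by a scarce transcript. Vegfa, the growth factor of vessels, was 2.62 and 3.12 CPM in WT and 8.92 and 6.15 CPM in the others (log2 fold change 1.39, SE 0.45, adjusted p = 0.259 by edgeR), at a mean of 1.70 FPKM. Mif was 252 and 142 CPM in WT and 304 and 282 CPM in the others (log2 fold change 0.57, SE 0.27, adjusted p = 0.422 by edgeR). Adm, a vasodilator peptide, was 11.5 and 4.57 CPM in WT and 13.8 and 15.6 CPM in the others. For Mif and Adm, WT replicate 1 lay nearer to the libraries labelled Trim24-deficient than to WT replicate 2. Leaving out 1 library accordingly gave Adm log2 fold changes between 0.36 and 1.70.

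Ndrg1, a stress-responsive gene often used as a sign of hypoxia, was 96.5 and 71.2 CPM in WT and 123 and 122 CPM in those labelled Trim24-deficient (log2 fold change 0.55, SE 0.20, adjusted p = 0.320 by edgeR). Ankrd37 was 16.1 and 11.8 CPM in WT and 21.9 and 29.5 CPM in the others (log2 fold change 0.88, SE 0.28, adjusted p = 0.250 by edgeR). Neither overlapped. Collagen prolyl hydroxylases did overlap, with a log2 fold change of 0.33 for P4ha1 and -0.17 for P4ha2. Kdm3a, a histone demethylase, was at 0.21 without overlap, since WT replicate 1 at 41.5 CPM was just under the 41.6 CPM of the lower library of the other group. Ddit4, an inhibitor of mTORC1, spread from 3.53 to 9.87 CPM within WT alone. Mxi1, an antagonist of Myc, was 20.3 and 10.2 CPM in WT and 6.80 and 10.5 CPM in the others, the lowest log2 fold change of the set at -0.82.

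Lists of related genes outside the 40 had medians nearer to 0. Of 22 further genes of glycolysis and pyruvate use that were tested, 11 had a log2 fold change above 0 and 11 below, with a median of 0.04. At an unadjusted p below 0.05 stood 3, all higher (all genes tested, 6.58% higher). Hk3 was 373 and 219 CPM in WT and 683 and 500 CPM in those labelled Trim24-deficient (log2 fold change 0.999, SE 0.28, adjusted p = 0.210 by edgeR). Slc2a6, a hexose transporter, was 24.2 and 15.2 CPM in WT and 46.5 and 30.4 CPM in the others, and Dlat, a subunit of pyruvate dehydrogenase, 61.8 and 58.0 against 80.1 and 79.2 CPM. Pdk3, the most abundant kinase of pyruvate dehydrogenase, had a log2 fold change of 0.23 (SE 0.20). Of 15 genes of the pentose phosphate pathway and glycogen, 11 had a log2 fold change above 0 and 4 below, with a median of 0.21. Both libraries labelled Trim24-deficient lay above both WT libraries in 8 of them (53.3%, all genes tested 21.5%). They lay below both in 3 (all genes, 23.0%). At an unadjusted p below 0.05, 1 was higher (all genes tested, 6.58%) and 1 lower (5.62%). Pygl, glycogen phosphorylase, was 53.2 and 39.7 CPM in WT and 80.1 and 66.5 CPM in the others (log2 fold change 0.66, SE 0.22, adjusted p = 0.263 by edgeR).

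Of 28 further hypoxia-inducible genes tested, 16 were above 0 and 12 below (median log2 fold change 0.10), with 5 higher and 2 lower at an unadjusted p below 0.05 (all genes tested, 6.58% higher and 5.62% lower). The 5 with the lowest p were Selenbp1 (0.82), Bhlhe41 (-1.13), Ero1a (0.88), Bhlhe40 (0.79) and Flt1 (2.33), each as a log2 fold change. Ero1a, an oxidase of the endoplasmic reticulum, was 151 and 86.6 CPM in WT and 224 and 214 CPM in the others. Bhlhe40 and Bhlhe41 encode related transcriptional repressors and ran in opposite directions, the latter at 51.8 and 80.4 CPM in WT and 20.4 and 39.8 CPM in the others. Flt1, a receptor for VEGF, overlapped between the groups, since 1 library at 45.3 CPM stood apart from the other 3 at 4.36 to 5.64 CPM. Of 12 further HIF regulators none stood at an unadjusted p below 0.05 by edgeR, and their median was 0.05. Egln2 was 84.2 and 65.8 CPM in WT and 69.1 and 90.4 CPM in the others, which overlapped.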

How the data were processed

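RNA-seq libraries of sorted TAMs were grouped by their genotype labels (2 WT, 2 labelled Trim24-deficient). Per the methods of the study and its processing notes, reads were aligned by Bowtie (build GRCm38, mm10). The authors' RSEM run gave each gene an expected count, deposited without normalization, and an FPKM value, which the authors scaled to gene length and library total. The deposited transcript length served only for a length check. A gene missing from a table was set to 0. Of 16739 genes, 16698 matched a symbol by Entrez identifier.

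Expected counts were rounded. edgeR 4.0.16 in R 4.3.3 filtered genes (filterByExpr), scaled libraries by TMM and tested the label with glmQLFit and glmQLFTest over 11302 genes, with Benjamini-Hochberg adjustment. CPM uses TMM-scaled totals. FPKM was used for levels between genes and CPM for differences. A call needed an adjusted p below 0.05 and a change of over 1.5-fold, as the study's thresholds have it. The smallest two-sided exact permutation p with 2 against 2 is 0.333, so adjusted p-values rest on the spread shared between genes. Per library, 3 counts make 0.58 to 0.67 CPM. Intervals cover counting error only. The fit was tested on simulated data.

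Full values are given for members with an unadjusted p below 0.05, the 2 most abundant of each role, and Hif1a, Epas1 and Vhl, for further genes with an unadjusted p below 0.05 (at most 5 a list) and for paralogs. Further values are of genes chosen after their values were seen. The value of 1 further gene of these lists is not reported here. Members and lists were chosen with earlier results of these data known. Expected counts of 10 members were not whole (over 0.005 from a whole number), so reads shared with other copies may be divided there: Gpi1, Pfkl, Gapdh, Eno1, Ldha, Pfkfb3, Pdk1, Epas1, Vegfa and Adm. Alternatives were DESeq2 1.42.0, limma 3.58.1 on log2 of FPKM plus 1 or 0.1, other scalings and filters, a gene length offset, a replicate block and leaving out each library.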

Additional observations from a re-analysis of the deposited data

How the results depend on the processing

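The 40 genes were followed through 13 alternatives. Of 517 values of single genes, 459 kept their direction and their side of the threshold, 27 kept their direction and passed the threshold, and 31 changed sign, in 9 genes. The counts of members with a log2 fold change above 0 and at an unadjusted p below 0.05 were chosen for this after the data were seen. Depth limits the scarce genes most, such as Epas1 and Vegfa.

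The number of genes called over all genes tested was 42. It was 156 with DESeq2, 23 and 20 with limma on log2(FPKM + 1) and log2(FPKM + 0.1), and 25 to 652 when 1 library was left out, 652 being without Trim24-deficient replicate 2, 405 without Trim24-deficient replicate 1, 66 without WT replicate 1 and 25 without WT replicate 2. Among the 40 genes, 0 were called in the main test, 1 with DESeq2 and 0 to 7 when 1 library was left out (7 without Trim24-deficient replicate 2, 5 without Trim24-deficient replicate 1, 1 without WT replicate 1 and 0 without WT replicate 2). At an unadjusted p below 0.05 with no limit on the fold there were 17. The count of those that were higher was 17, ran from 12 with limma to 24 with the replicate block among the fits of all 4 libraries, and from 3 without WT replicate 2 to 20 without WT replicate 1 or without Trim24-deficient replicate 2 when 1 library was left out. Over all genes tested, the share higher at an unadjusted p below 0.05 was 6.58% in the main test and 8.49% with the replicate block. With limma it was 3.99% on log2(FPKM + 1) and 3.89% on log2(FPKM + 0.1). This share was lower than in the main test without either WT library, and higher without either Trim24-deficient library. The counts among the 40 genes therefore cannot be compared between fits on their own. The median log2 fold change of glycolytic enzymes ran from 0.24 without WT replicate 2 to 0.75 without WT replicate 1. That of other HIF targets ran from 0.22 to 0.80 likewise. Such fits assume that the lone library of a group varies like the others. The cause of these shifts was not tested.

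The replicate numbers share only a number in the labels, and the deviations of same-numbered libraries correlated at 0.165 across genes. With the replicate block, 634 genes (5.61% of all tested) and 13 of the 40 were called, namely Aldoa, Aldoc, Ankrd37, Bnip3, Egln3, Eno1, Hk2, Pfkfb3, Pfkl, Pfkp, Slc16a3, Slc2a1 and Vhl. In that fit edgeR estimated no spread of its variances between genes beyond sampling.

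Library totals without TMM moved the median of all genes to -0.15 and that of the 40 genes from 0.50 to 0.36, and 31 of 40 were then above 0. At an unadjusted p below 0.05, 744 genes were higher and 635 lower in the main test, and 448 were higher and 1269 lower without TMM. Changes of sign under it were Pfkm -0.03, Gapdh -0.10, Ldhb -0.05, Pfkfb4 -0.11 and Ddit4 -0.04. With upper-quartile scaling Gapdh was -0.01 and Pfkfb4 -0.01. With limma on log2(FPKM + 1) Pfkm was -0.01, Gapdh -0.12, Ldhb -0.05 and Pfkfb4 -0.08. With limma on log2(FPKM + 0.1) they were -0.00057, -0.12, -0.06 and -0.08. Log2 fold change and gene length had a rank correlation of -0.249 over 11302 genes. With the gene length trend removed Gapdh was -0.02 and Pdk1 0.07. The median was then 0.46 for glycolytic enzymes (0.47 in the main test) and 0.48 for other HIF targets (0.55 in the main test). For the HIF system it was 0.68 (0.58 in the main test). Leaving out 1 library gave ranges of -0.05 to 0.60 for Gpi1, -0.21 to 0.54 for Pfkm, -0.25 to 0.32 for Gapdh, -0.05 to 0.56 for Pgam1, -0.13 to 0.37 for Ldhb, -0.21 to 0.38 for Pfkfb4, -0.24 to 0.09 for Pdk1, -0.62 to 0.18 for P4ha2 and -0.46 to 1.03 for Ddit4.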
